A study of Mus musculus with 4 samples.

Results

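The mouse microRNAs (miRNAs) mmu-miR-574-5p, mmu-miR-483, mmu-miR-671-5p, mmu-miR-709 and mmu-miR-468 were examined in B104 cells after knockdown of the RNA-binding protein RBM3. They were picked by name because their signal was kept or raised after RBM3 siRNA, and they are 5 of 567 mouse miRNAs, or of 577 miRNA names, on the array. The values that picked them are those of the knockdown contrast, so their differences between groups are given as a description with no test. The arrays measured mature miRNAs in B104 cells, a neuronal cell line derived from neuroblastoma, in 2 groups of 2 arrays each. The first group had received RBM3 siRNA at 20 nM and was harvested at 48 h, and the control group (con) was mock transfected and harvested at 48 h, with no scrambled siRNA on these arrays. The labels call the cells mouse, while the methods cite work on rat central nervous system lines for B104, and every miRNA name here is that of the mouse array design. The study speaks of triplicate experiments for the profiling, against 2 arrays per group here. The labels do not say whether these arrays came from separate cultures, so that the spread between 2 arrays may be technical.

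A miRNA is a short RNA cut from a hairpin precursor first by Drosha in the nucleus and then by Dicer in the cytoplasm, and either arm of the hairpin can be loaded into an Argonaute protein. The loaded strand finds its target mRNAs mainly through its seed, bases 2 to 8 counted from its 5′ end, and lowers their translation or stability. RBM3 is a cold-induced protein that binds RNA and ribosomes, and the knockdown asked what its loss does to mature miRNA levels.

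Mature sequences were taken from RefSeq (build GRCm38.p6) to set the members side by side, and 2 of the 5 names, miR-574-5p and miR-671-5p, had an exact entry. The array name miR-483 gives no arm, so both arms of that hairpin are shown. Capitals mark the seed.
mmu-miR-574-5p: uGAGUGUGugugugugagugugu
mmu-miR-671-5p: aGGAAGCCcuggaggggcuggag
mmu-miR-483-5p: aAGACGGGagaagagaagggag
mmu-miR-483-3p: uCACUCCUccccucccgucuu
These lie at chr5:64970328-64970350 on the plus strand (miR-574-5p), at chr5:24592132-24592154 on the plus strand (miR-671-5p), and at chr7:142654968-142654989 (miR-483-5p) and chr7:142654932-142654952 (miR-483-3p) on the minus strand. For miR-468 RefSeq lists only a 5p arm, and the array name gives no arm, so the hairpin is shown, with the 5p arm in capitals, from chr6:81896599-81896676 on the minus strand.
Mir468 hairpin: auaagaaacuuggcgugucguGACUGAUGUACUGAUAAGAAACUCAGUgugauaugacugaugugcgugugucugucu
miR-709 is named only.

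No seed was shared among the sequences shown, and no other miRNA in the RefSeq table carried one of these seeds. Mature miR-574-5p is made almost wholly of U and G (91.3% of its 23 bases), and its longest stretch of alternating U and G ran over 13 bases, which no other of the 1679 mature names in the table reached, against a median of 3. The motif UGUGUG, read on the given strand with overlaps allowed, was found in 28 of the 1679 names (1.67%), miR-574-5p among them. A high share of G was common to miR-574-5p (47.8%), miR-671-5p (52.2%) and miR-483-5p (50%), against a median of 26.9% G over the table. Of the bases of miR-483-5p, 95.5% were purines. miR-483-3p is the opposite, with 57.1% C and 4.76% G, and the 5p arm of miR-468 had 22.2% G. Since the array name miR-468 gives no arm, this value may not be that of the strand its probes read. Base composition could be set against the signal only for the 139 of the 567 mouse names (24.5%) with an exact sequence entry. The threshold for a high share of G was also taken from the members. Nothing is therefore read from that comparison about the whole array.

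The genes lie apart. In the RefSeq gene table Mir574 overlapped the protein-coding genes Fam114a1 and Tlr6, Mir671 overlapped Chpf2, Mir483 overlapped Igf2 (the insulin-like growth factor 2 gene, which holds it in an intron), Mir709 overlapped Rfx1, and Mir468 overlapped no gene.

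Before any scaling, signals of most miRNAs were lower on the RBM3 siRNA arrays, and the 5 were higher beside them. Of the mouse miRNAs, 147 and 162 were detected on the RBM3 siRNA arrays, against 177 and 190 on the control arrays, 214 on at least 1 array and 130 on every array. Over these 130 the median total signal was 94.2 and 92.4 after RBM3 siRNA, against 375 and 421 in controls. The 6 positive control probes of the array design were also dimmer on the RBM3 siRNA arrays, by log2 differences of -0.57 to -1.62. Centring on these probes is among the treatments given below, and the reason for their dimming was not tested. Fewer cells, less miRNA per cell and dimmer arrays cannot be told apart in such signals of bulk RNA. Among the neural markers, miR-9, miR-9* and miR-128 were detected on every array, miR-7a only on control arrays and miR-124 on none (3 of 5 on every array), with a summed list signal of 169 and 171 after RBM3 siRNA, against 973 and 1080 in controls. All 4 muscle markers were detected on every array (summed signal 4441 and 4591 after RBM3 siRNA, against 10192 and 12735 in controls), while no liver, blood or endocrine pancreas marker was detected.

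All 5 members had a higher total signal on both RBM3 siRNA arrays than on either control array. Such separation was seen in 18.7% of the 214 mouse miRNAs with a detection call on any array, and in 11.5% of the 130 with one on all arrays. With 2 arrays per group the members were chosen for this separation, so nothing is read from their count. The log2 differences below are of total signal plus 20 after scale normalization between arrays, unless no scaling is named.

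miR-574-5p, which in human lung cancer cells has been described as a decoy for the RNA-binding protein CUGBP1, had the largest positive log2 difference of all miRNAs tested. Its total signal was 421 ± 31.3 and 288 ± 21.3 on the RBM3 siRNA arrays, against 56.5 ± 7.86 and 59.3 ± 7.46 on the control arrays (error of Feature Extraction, the scanner software, on each array). The dimmer RBM3 siRNA array was still 4.85 times the brighter control array, so the groups lay far apart, while the RBM3 siRNA arrays differed from each other more than the controls did. The means were 354 ± 94.6 after RBM3 siRNA and 57.9 ± 2.04 in controls (SD, n = 2 each), a ratio of 6.12. The log2 difference was 2.42, or 2.24 with no scaling. The other arm, miR-574-3p, did not share this pattern. Its signal was -0.61 and 20.8 on the RBM3 siRNA arrays, against 21.6 and 20.8 on the control arrays, and it was detected on 1 array of each group.

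miR-468 was the member that passed from undetected to detected. Its signal was 50.8 ± 4.72 and 84.2 ± 5.52 on the RBM3 siRNA arrays, both detected, against 7.41 ± 4.77 and 12.6 ± 4.37 on the control arrays, neither detected. Of its 20 spots per array, 19 and 20 were well above background after RBM3 siRNA, against 0 and 0 in controls. Since neither control signal passed detection, the ratio is given with each control array at the undetected signal of miR-468 itself. That signal was above the lowest signal detected on the same array (4.82 and 7.09). On log2(total signal + 20), miR-468 was then 3.15-fold higher after RBM3 siRNA with scale normalization, and 2.87-fold with no scaling. These values carry the error of undetected signals and are no lower bound. They hold for that scale only, since normexp with an offset of 50 gave a log2 difference of 1.09. miR-468 was 1 of 13 mouse miRNAs detected on both RBM3 siRNA arrays and no control array, against 41 detected on both control arrays and no RBM3 siRNA array.

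miR-671-5p, known in human and mouse cells for directing the cleavage of the circular RNA Cdr1as, had a signal of 147 ± 8.47 and 175 ± 9.61 on the RBM3 siRNA arrays, against 69.6 ± 5.93 and 71.0 ± 5.62 on the control arrays. Both RBM3 siRNA arrays were thus above both controls by more than the measurement error. The means were 161 ± 20.1 after RBM3 siRNA and 70.3 ± 1.01 in controls (SD, n = 2 each), a ratio of 2.29 and a log2 difference of 1.16, or 1.0 with no scaling. The 3p arm of the same hairpin was not detected on any array, with signals of -6.73 and -7.20 after RBM3 siRNA, against -11.2 and -13.1 in controls.

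miR-483, which is made with its host Igf2 and is known from human Wilms tumours, had a signal of 171 ± 9.47 and 200.1 ± 10.7 on the RBM3 siRNA arrays, against 85.3 ± 6.41 and 90.9 ± 6.30 on the control arrays. The groups did not overlap, and as for miR-671-5p the second RBM3 siRNA array was the brighter. The means were 185 ± 20.8 after RBM3 siRNA and 88.1 ± 3.96 in controls (SD, n = 2 each), a ratio of 2.11 and a log2 difference of 1.09, or 0.92 with no scaling. miR-483*, the name the array gives to the other strand, was not detected on any array (10.5 and 15.5 after RBM3 siRNA, against 6.11 and 9.51 in controls).

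miR-709, described in mouse cells as a nuclear miRNA that binds the miR-15a/16-1 precursor, showed the smallest ratio. Its signal was 1031 ± 87.4 and 1081 ± 90.8 on the RBM3 siRNA arrays, against 865 ± 73.4 and 871 ± 74.4 on the control arrays. The arrays within each group lay close together, and the group values did not overlap. The lower RBM3 siRNA signal less its error was 944, however, against 946 for the higher control signal plus its error, so miR-709 was the only member whose groups met within the measurement error. The means were 1056 ± 35.1 after RBM3 siRNA and 868 ± 4.82 in controls (SD, n = 2 each), a ratio of 1.22. Its log2 difference was 0.51, or 0.28 with no scaling, so miR-709 is better described as kept than as gaining signal. The array has 23 mouse names numbered miR-700 to miR-721, of which 7 were detected on at least 1 array. Besides miR-709, 3 of them were detected on every array. The signal of miR-705 was 50.6 and 59.5 after RBM3 siRNA, against 33.4 and 30.9 in controls. That of miR-712 was 25.8 and 24.2 after RBM3 siRNA, against 22.0 and 22.9 in controls, and that of miR-720 was 32743 and 32650.4 after RBM3 siRNA, against 37685 and 37874 in controls. Of these 3, limma called only miR-705 (higher, adjusted p = 6.8e-05 over all miRNAs tested). The other names of this range passed the detection filter through RBM3 siRNA arrays alone and are not counted.

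**Figure D1:**
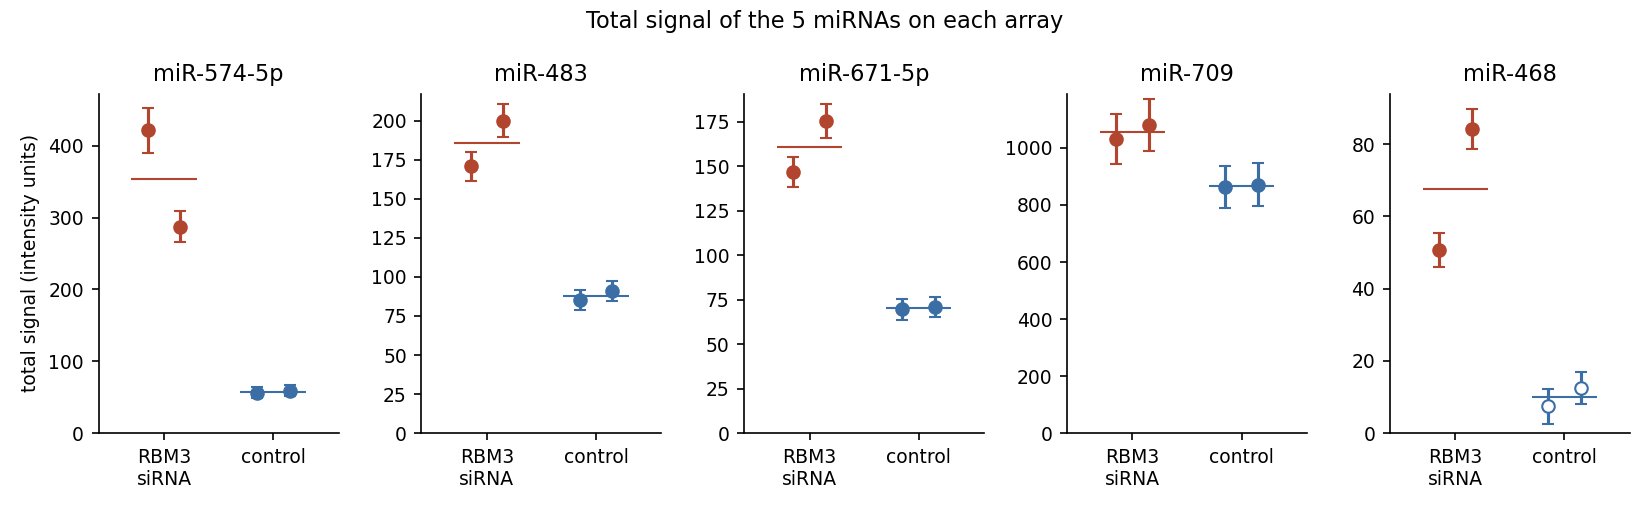
Total signal of each of the 5 miRNAs on each array (vertical axis, intensity units, a separate scale from 0 for each miRNA), with RBM3 siRNA arrays left of control arrays. Points are arrays, bars the error given by Feature Extraction, short lines the group means, and open symbols arrays on which the miRNA was not detected. For every member both RBM3 siRNA points lie above both control points, with the bars of miR-709 meeting (944 against 946) and both control points of miR-468 open.

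The members differed in how far the replicates lay apart. On log2 of total signal plus 20 with no scaling, miR-468 differed by 0.56 between the RBM3 siRNA arrays and miR-574-5p by -0.52 (replicate 2 minus replicate 1). Among the 130 miRNAs that were detected throughout, none had a larger gap between these arrays than either of them, and the median gap was 0.06. The gaps ran in opposite directions, since miR-574-5p was brighter on the first RBM3 siRNA array and the other 4 members on the second. miR-671-5p (0.23) and miR-483 (0.21) also had gaps above the median, with 6 and 9 of the 130 miRNAs above them, and miR-709 (0.07) had 54 above it. Between the control arrays the gaps of the members were 0.01 to 0.25, against a median of 0.17 over the 130, and all 5 were brighter on the second control array, as were 117 of the 130.

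Each miRNA is read by several probes, each printed as 5 or 10 spots, and these were followed one by one. The members had 16 probes in all, and for 16 of 16 both RBM3 siRNA means were above both control means, also without the 4 spots that carried an outlier flag. Every one of the 200 RBM3 siRNA spots was brighter than the brightest control spot of the same probe. The same separation of probe means held for 37 of 273 probes (13.6%). These were the probes of miRNAs detected on every array with all probe means above 0. That set leaves out miR-468 and holds the probes of the other members. The members were picked for signals read from these same spots, so nothing is read from the separation of their probes or spots. Spots share 1 sample and 1 hybridisation, so the number of spots adds no replicate.

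The probes of 1 member agreed closely in size except for miR-468. The 2 probes of miR-574-5p gave log2 differences of 2.55 and 2.68 in processed signal, the 4 of miR-483 gave 1.08 to 1.14, the 4 of miR-671-5p gave 1.14 to 1.37, and the 2 of miR-709 gave 0.31 and 0.40. The range over the probes was thus 0.06 to 0.23 for these 4 members. The median was 0.10 over the 124 miRNAs of that set with 2 or more probes, detected on every array with all probe means above 0. For miR-468 the 4 probes gave 2.33 to 3.96, a range of 1.62, against control signals that were not well above background and so with no measured difference. Its probe with the largest difference had a mean of 34.0 and 58.2 after RBM3 siRNA, against 2.52 and 3.26 in controls, where no spot was well above background, so that its log ratio rests on control values near 0.

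The brighter probe of miR-709 averaged 1276 and 1333 after RBM3 siRNA, against 1047 and 1059 in controls, and the dimmer one 267 and 296 after RBM3 siRNA, against 218 and 209.6 in controls. Both were thus higher by a like factor, although their brightness differed severalfold. For miR-574-5p, 14 and 18 of the 20 control spots were well above background, and all 20 on each RBM3 siRNA array. For miR-483, miR-671-5p and miR-709 all 20 spots were well above background on every array.

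**Figure D2:**
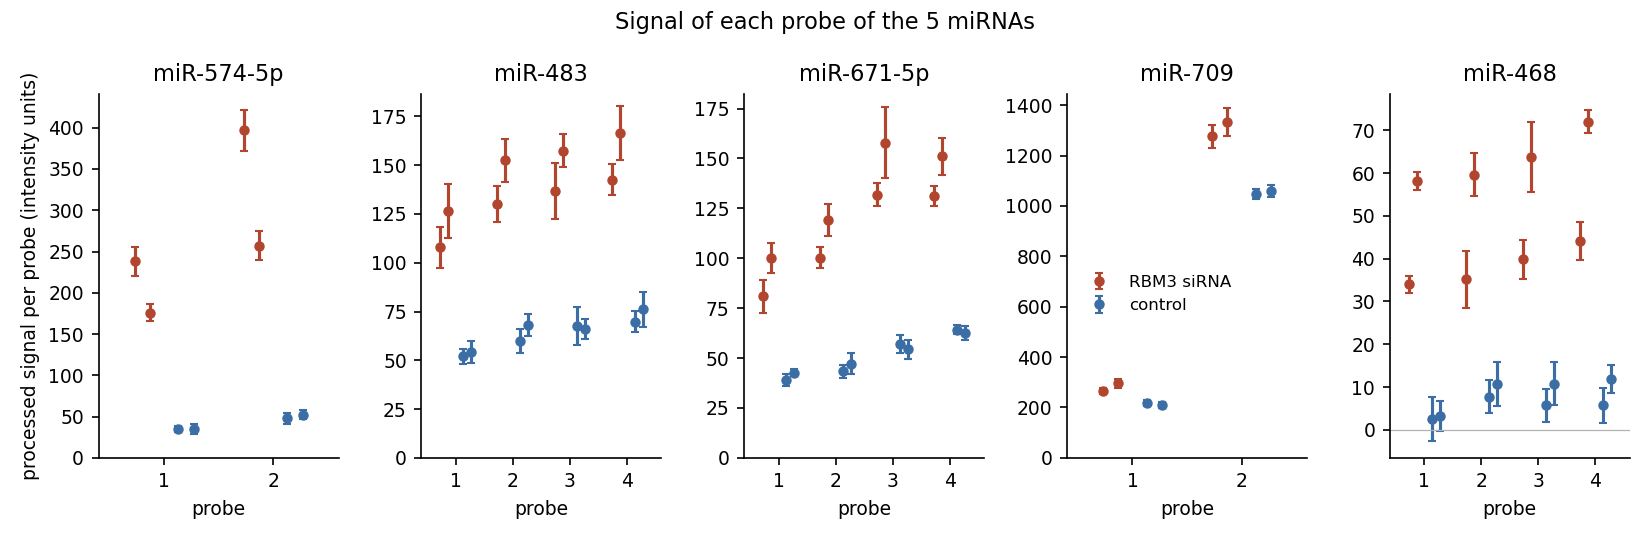
Mean processed signal of each probe of the 5 miRNAs on the 4 arrays (vertical axis, intensity units), RBM3 siRNA arrays left of control arrays. Points are arrays, and bars give the SD over the 5 or 10 spots of a probe. In all 16 probes both RBM3 siRNA means are above both control means.

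The differences of the members stand beside lower values of most miRNAs under scale normalization, a split that turns to mostly higher when each array has the 75th percentile of the detected miRNAs subtracted (140 higher and 21 lower calls). The fit across all miRNAs with scale normalization used limma, blocked on replicate number and adjusted by Benjamini-Hochberg. It called 203 of the 214 miRNAs (94.9%), 38 higher (17.8%) and 165 lower (77.1%) after RBM3 siRNA. Where detection on every array was required, 14 of 130 were called higher (10.8%) and 111 lower (85.4%). The median log2 difference over the 130 miRNAs detected on every array was -1.70. Relative to this median miR-574-5p was higher by 4.12, miR-671-5p by 2.86, miR-483 by 2.79 and miR-709 by 2.21, while miR-468, with no measured control level, has no exact difference. With no scaling the median was -1.87, and miR-574-5p, miR-671-5p, miR-483 and miR-709 took ranks 1, 8, 11 and 35 from the highest of the 214 differences. Of these, 41 were above 0, and so were 15 of the 130 with detection throughout, among them 4 members and 11 other miRNAs. miR-709 had miR-721 (0.28) just before it and miR-874 (0.27) just after it, and 7 of the 11 others had a larger difference than miR-709, so the 5 are not the 5 largest.

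Outside the members, the largest positive differences among miRNAs detected throughout were those of miR-1224 (1.14 with no scaling), miR-135a* (0.94) and miR-125a-3p (0.92). The lowest were those of miR-125b-5p (-3.36), miR-199b* (-3.13) and miR-199b (-3.00). miR-125b-5p, an abundant neural miRNA, had a signal of 521 and 459.9 after RBM3 siRNA, against 4862 and 5584 in controls.

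Split by mean level into 3 parts, the 44 dimmest of the 130 had a median difference of -1.44 with no scaling and held 10 of the 15 miRNAs above 0, miR-671-5p among them. The 43 in the middle had a median of -1.99 with 3 above 0, miR-574-5p and miR-483 among them. The 43 brightest had a median of -2.23 with 2 above 0, miR-709 among them. This level was the mean over all arrays, so it takes in the RBM3 siRNA signals that picked the members. In controls alone, miR-574-5p (57.9), miR-671-5p (70.3) and miR-483 (88.1) lay below the medians of the 130 (375 and 421). Only miR-709 (868) lay above them. The spread of the members over the 3 parts is therefore not one of control levels.

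**Figure D3:**
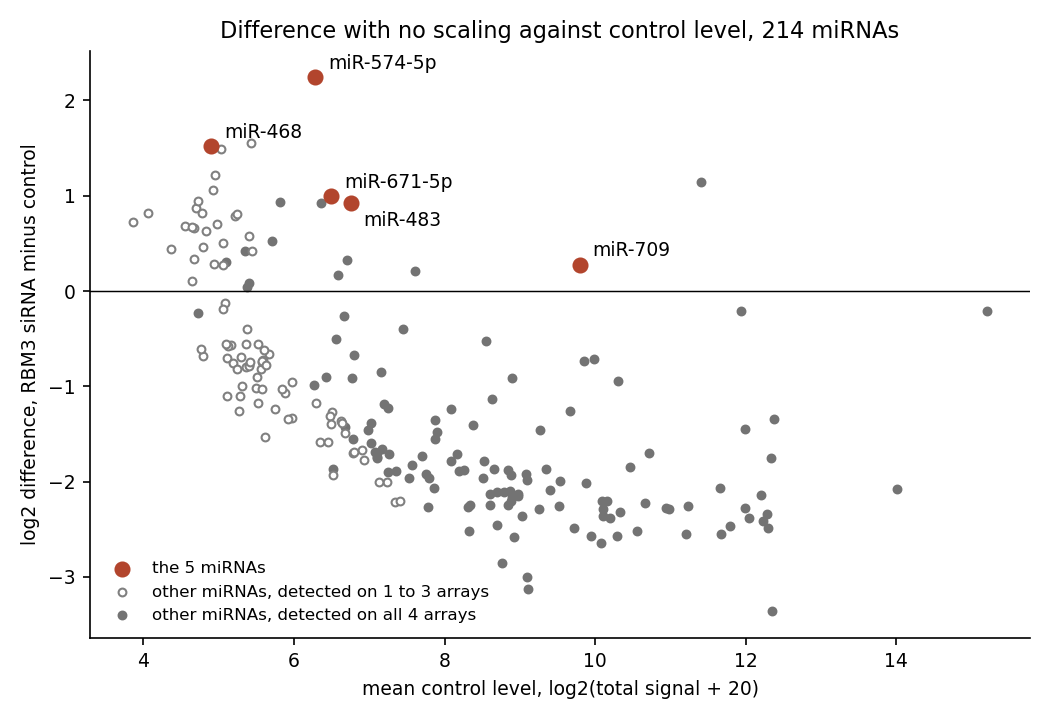
Difference in log2(total signal + 20), RBM3 siRNA minus control with no scaling (vertical axis), against the mean control level in log2(total signal + 20) (horizontal axis), 1 point per mouse miRNA detected on at least 1 array (open where detected on 1 to 3 arrays). The 5 members lie above 0 (miR-468 at its undetected control signals) while the median of the 130 miRNAs detected on every array lies at -1.87.

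The size of each difference depended on how the arrays were put on a common scale, and its direction did not. Over 11 treatments of the signal, miR-574-5p ranged from 2.24 to 6.70, miR-671-5p from 1.0 to 5.0, miR-483 from 0.92 to 5.03 and miR-709 from 0.28 to 5.83. All 5 were higher after RBM3 siRNA and above the median of the 130 miRNAs in each of them. The members were picked for higher signals, and every scaling put the median of the 130 above the -1.87 of no scaling. Nothing is therefore read from the kept direction. Centring on the positive control probes gave 3.32 for miR-574-5p, 2.08 for miR-671-5p, 2.01 for miR-483 and 1.36 for miR-709. Relative to the median of the 130 miRNAs, miR-574-5p ranged from 2.79 to 4.79, miR-671-5p from 1.77 to 3.39, miR-483 from 1.86 to 3.27 and miR-709 from 2.03 to 3.56. Of these 4 the place of miR-709 moved most, from rank 3 to rank 37, while miR-574-5p stayed between rank 1 and rank 5.

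**Figure D4:**
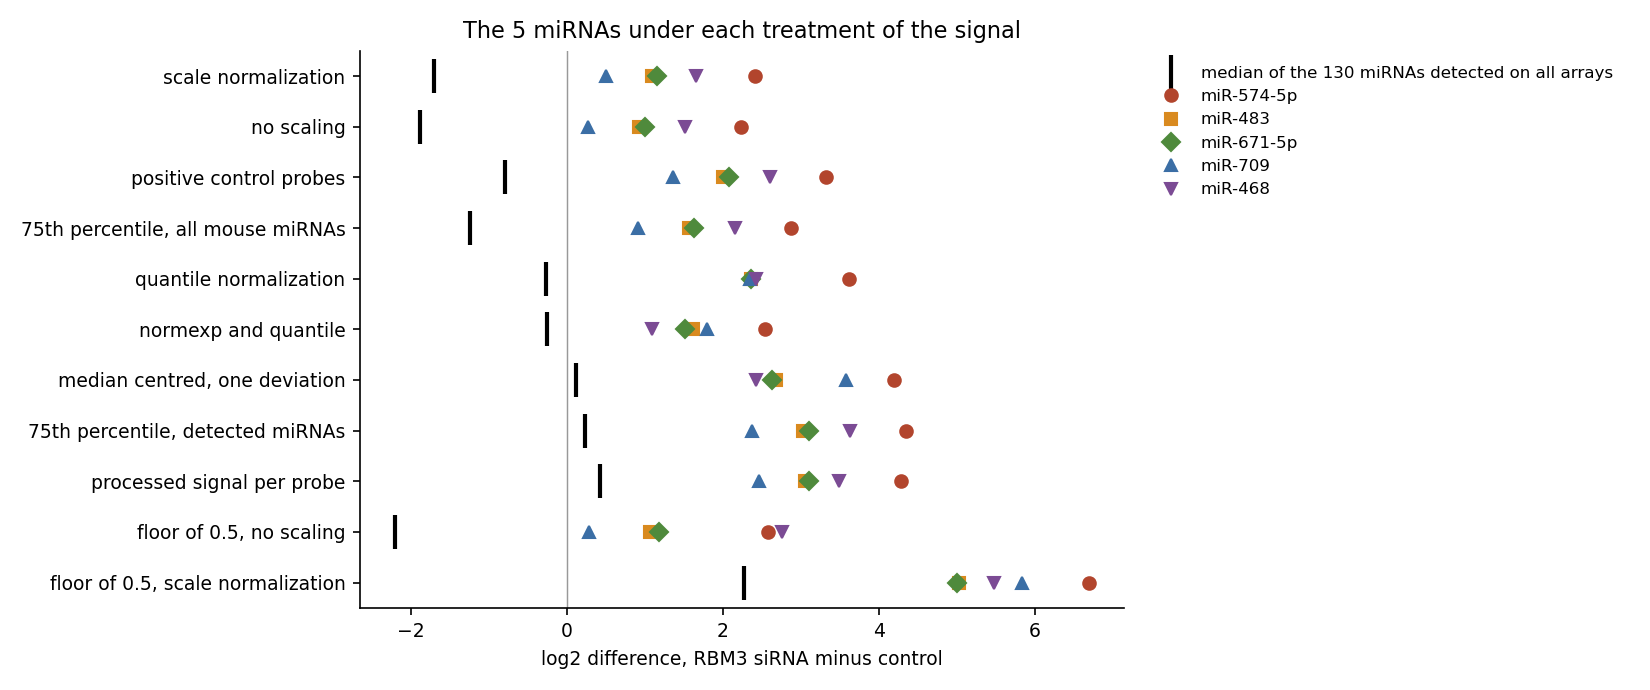
Log2 difference, RBM3 siRNA minus control (horizontal axis), of the 5 miRNAs (coloured symbols) under 11 treatments of the signal (vertical axis), with a black bar at the median of the 130 miRNAs detected on every array. All 5 symbols lie right of 0 and right of the bar in every treatment (miR-468 at its undetected control signals), and the distance from 0 changes with the scaling.

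The miRNAs with the most similar pattern over the 4 arrays were found by the distance between log2 values with no scaling, each centred on its own mean, among 209 other miRNAs. Since 4 arrays in 2 groups leave little more than the size of the difference, likeness here says that the differences were alike in size. Nearest to miR-574-5p were miR-466c-5p (distance 0.87) and miR-669c (1.05), so it had no close match. Nearest to miR-468, taken at its undetected control signals, were miR-669c (0.17) and miR-669a (0.34). Nearest to miR-483 were miR-135a* (0.12) and miR-680 (0.14), nearest to miR-671-5p were miR-135a* (0.13) and miR-1224 (0.15), and nearest to miR-709 were miR-685 (0.06) and miR-874 (0.09). miR-466c-5p, miR-669c and miR-669a belong to a large group of near-alike sequences, whose probes can share signal. No probe sequences were available, so sharing of signal was not tested for these miRNAs. Nor was it tested for the members, among them miR-574-5p with its long stretch of alternating U and G.

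miR-669c had a signal of 82.2 and 134 on the RBM3 siRNA arrays, against 22.7 and 23.1 on the control arrays. Its second RBM3 siRNA array was the brighter, as for miR-468, and this likeness is part of how it was picked. miR-466c-5p had 69.5 and 74.6 after RBM3 siRNA, against 11.7 and 13.9 in controls, where it was not detected. miR-135a* had 84.9 and 90.4 after RBM3 siRNA, against 36.9 and 35.6 in controls. In miR-1224, one of the brighter miRNAs, the signals were 5598 and 6333 after RBM3 siRNA, against 2714 and 2653 in controls. These miRNAs were picked for likeness to members whose groups lay apart, so nothing is read from their own groups not overlapping.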

How the data were processed

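Total RNA of B104 cells was hybridised to 1-colour miRNA arrays. The authors scanned them and extracted intensity with Feature Extraction 10.1.1.1, which gives a background-subtracted signal per spot, and per miRNA a total signal with an error and a detection flag (other). The deposited table gives this total plus 20, as intensity with no scaling. No spot was saturated. Here log2(total signal + 20) of the 567 mouse miRNAs was scaled between arrays by limma's scale method (limma 3.58.1, R 4.3.3). Every miRNA with a detection call on at least 1 array entered lmFit and eBayes, blocked on replicate number because the methods of the study pair the samples, and p-values were adjusted by Benjamini-Hochberg over the 214 tested, with a threshold of 0.05. The block leaves 1 residual degree of freedom before moderation. The fit was tested on simulated data. The number of arrays, 2 per group, limits precision. Per-probe values are mean processed signals over spots. Members, lists and tests were chosen with earlier results of these data known, and an earlier treatment (a floor of 0.5 before scale normalization), which turned most directions, is kept as an alternative. Other alternatives were further scalings and background corrections, the detection filter, the block and leaving out each array. Named miRNAs were the members, the other arm of each hairpin, the 2 nearest in pattern to each member and the 3 largest and 3 lowest differences, and miR-721 and the marker miRNAs beside them. Sequences and gene overlaps came from RefSeq tables.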

Additional observations from a re-analysis of the deposited data

How the results depend on the processing

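All 5 members were higher after RBM3 siRNA in every treatment run (5 of 5 also on leaving out each array), and 16 of 16 probes kept their direction without outlier-flagged spots. The members were picked for this direction. Both their RBM3 siRNA signals were above both control signals, so leaving out 1 array could not turn it. Nothing is therefore read from these counts of members and probes. The 203 calls became 125 where detection on every array was required, since only 130 miRNAs were then tested. The higher calls fell from 38 to 14 and the lower calls from 165 to 111. The scaling set the split: 38 higher and 165 lower calls became 140 and 21 with the 75th percentile of detected miRNAs, 165 and 16 with processed signal per probe, 131 and 19 with a floor of 0.5 and scale normalization, 78 and 74 with median centring to one deviation, 73 and 114 with positive control probes, 55 and 114 with normexp, 51 and 103 with quantile normalization, and 48 and 137 with the 75th percentile of all mouse miRNAs. Arrays sharing a replicate number deviated apart rather than together (correlation -0.33), and there were 203 calls with no replicate block and 204 with the replicate numbers crossed, a pairing chosen after seeing the data. The 2 arrays per group limit the precision of every value, and miR-468 has no measured control level.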

Other observations

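The array also carries 10 viral miRNA names. Of these, mghv-miR-M1-2 was detected on all 4 arrays, with a signal of 47.5 and 42.1 after RBM3 siRNA, against 36.4 and 42.4 in controls, so the groups overlapped. mghv-miR-M1-6 was detected on 1 RBM3 siRNA array, with a signal of 15.3 and 20.8 after RBM3 siRNA, against 7.19 and 8.31 in controls.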
